A study of Komagataella phaffii GS115 with 12 samples.

Results

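The 2 array rows described here, YNL122C and YKL138C, were picked from a table of 2390 rows because they lay on opposite sides in the G12-CBS strain at 72 h of methanol induction when it was set against the DS56 strain at 72 h and against G12-CBS at 24 h. The names follow the systematic naming of Saccharomyces cerevisiae genes. In that yeast YNL122C is a mitochondrial ribosomal protein related to bacterial bL35, and YKL138C is MRPL31. Both belong to the large subunit of the mitochondrial ribosome. Mitochondrial ribosomes translate the few proteins still encoded in mitochondrial DNA, most of which are subunits of the respiratory chain and of ATP synthase. Nearly all proteins of these ribosomes are themselves encoded in the nucleus, made in the cytosol and imported.

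RNA came from cultures of Komagataella phaffii GS115 (also called Pichia pastoris), a yeast that grows on methanol as carbon source. They were grown in shake flasks in BSM medium, and total RNA was hybridised to 12 one-colour Cy3 NimbleGen arrays, 3 for each of 4 groups. The first group, G12-CBS at 72 h of methanol, carried DS56, a recombinant methionine adenosyltransferase gene, and had CYS4 under the weak promoter G12, which was meant to lower CYS4. The second was the same strain at 24 h, before any L-methionine was given. The third, GS115/DS56 at 72 h (called DS56 here), carried the recombinant gene alone, and the control, also at 72 h, was GS115 with the empty vector pPIC3.5K integrated. The 3 groups at 72 h had received L-methionine after 24 h of methanol, to feed synthesis of S-adenosyl-L-methionine. All 12 samples therefore share the GS115 background and methanol, and each group's 3 arrays came from separate cultures. The sources used here do not give the number of transformants per strain. The phenotype labels class G12-CBS at 72 h and DS56 as high producers, and G12-CBS at 24 h and the control as low producers. The sample titles differ from this for G12-CBS at 24 h, which they mark HP (high-producing) like the other engineered samples.

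None of the row names matched an entry of the RefSeq gene table for K. phaffii (assembly ASM2700v1, 5040 genes), so the roles above are those of the S. cerevisiae genes. It is not known here which K. phaffii transcript the probes of either row detect, and no position in the K. phaffii genome is given. Values are on the log2 scale, from 5.62 to 15.76 with a median of 6.64, so a difference of 1 is a 2-fold difference in the deposited value. The row means were below 7 in 83.0% of rows. Array medians ran from 6.59 to 6.62 in G12-CBS at 72 h, from 6.65 to 6.66 in G12-CBS at 24 h, from 6.65 to 6.66 in DS56 and from 6.60 to 6.62 in the control. The median SD of a row over 3 arrays was 0.177 in G12-CBS at 72 h, 0.095 in G12-CBS at 24 h, 0.112 in DS56 and 0.185 in the control. No label sets G12-CBS at 24 h and DS56 together against the other 2 groups.

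YNL122C, the bL35-like row, was low in G12-CBS at 72 h, with 7.59, 6.82 and 7.19. In G12-CBS at 24 h it stood at 9.64, 9.94 and 9.82. It was at 9.74, 9.34 and 9.87 in DS56, and at 7.15, 7.57 and 7.75 in the control. The 12 values thus fell at 2 levels: the 6 arrays of G12-CBS at 24 h and DS56 all lay above 9.3, and the 6 arrays of G12-CBS at 72 h and the control all lay below 7.8. In order of its means, YNL122C averaged 9.80 ± 0.15 in G12-CBS at 24 h, 9.65 ± 0.27 in DS56, 7.49 ± 0.31 in the control and, lowest, 7.20 ± 0.39 in G12-CBS at 72 h (SD, n = 3 each). The arrays of the upper 2 groups overlapped, and so did those of the lower 2.

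YKL138C, the MRPL31 row, was high in G12-CBS at 72 h, with 9.87, 10.11 and 10.17. In G12-CBS at 24 h its values were 6.87, 6.66 and 6.79. They were 6.96, 6.76 and 6.76 in DS56, and 7.05, 7.10 and 7.35 in the control. All 9 arrays outside G12-CBS at 72 h lay below 7.4, and no array of that group fell under 9.8. In order of its means, YKL138C averaged 10.05 ± 0.16 in G12-CBS at 72 h, 7.17 ± 0.16 in the control, 6.82 ± 0.12 in DS56 and 6.77 ± 0.11 in G12-CBS at 24 h (SD, n = 3 each). The control arrays lay just above those of DS56, and the last 2 groups overlapped. The values in DS56 and G12-CBS at 24 h were close to the median of the table and could not be set against a background, so the folds below are folds of the deposited values.

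**Figure D1:**
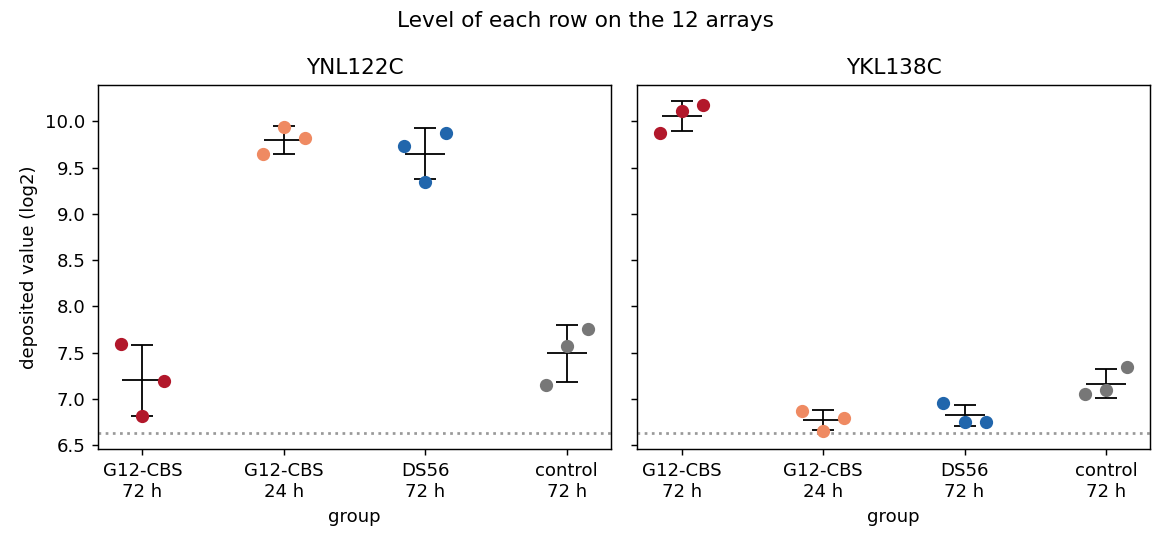
Deposited log2 value of YNL122C (left) and YKL138C (right) on each of the 12 arrays, by group, with the mean and SD of the 3 arrays in black and the typical array median as a dotted line. YNL122C lies at a high level in G12-CBS at 24 h and DS56 and at a low one in the other groups, while YKL138C is high in G12-CBS at 72 h only.

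The position of a row within its own array gives the same picture. It comes from the same deposited values, so it is not a separate check. Counted from the brightest of the 2390 rows, YNL122C ranked 207, 723 and 332 on the arrays of G12-CBS at 72 h. It ranked between 74 and 85 in G12-CBS at 24 h, between 77 and 94 in DS56, and between 185 and 355 in the control. YKL138C ranked between 69 and 77 in G12-CBS at 72 h, between 662 and 1207 in G12-CBS at 24 h, between 530 and 891 in DS56 and between 265 and 429 in the control. Where bright, each row was therefore among the 100 brightest on every array, and where dim it was often still in the brighter part of the table. A level can recur exactly: the value 9.87 was held by YKL138C on G12-CBS 72 h replicate 1 and by YNL122C on DS56 replicate 3, both at rank 77.

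The spread of replicates was set against that of rows of like level in the same group. In DS56, YNL122C had an SD of 0.274, larger than that of any of the 30 other rows whose DS56 mean lay within 0.5 of its own, which had a median SD of 0.080. In G12-CBS at 72 h its SD of 0.387 exceeded that of 87.7% of 677 rows of like level. It was less extreme in G12-CBS at 24 h, where its SD of 0.148 exceeded that of 72.4% of 29 rows, and in the control, where 0.308 exceeded that of 67.6% of 256 rows. For YKL138C the share of rows with a smaller SD was 48.1% in G12-CBS at 72 h, 59.5% in G12-CBS at 24 h, 50.6% in DS56 and 30.7% in the control. In G12-CBS at 72 h its SD of 0.161 compared with a median of 0.164 over 27 rows of like level, and in DS56 its SD of 0.116 compared with 0.114 over 1981 rows.

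The differences that follow come from a limma fit over all rows and all 12 arrays, with its moderated standard error (SE). Since the rows were chosen for their pattern over these arrays, the differences are descriptions and carry no p-value. Comparisons that share a group of arrays are not independent of each other.

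At 72 h, G12-CBS and DS56 both had the recombinant gene and L-methionine, and differed by the promoter of CYS4. Whether CYS4 was lowered was not checked here. YKL138C averaged 10.05 in G12-CBS and 6.82 in DS56, a log2 difference of 3.23 ± 0.13 (SE), or 9.38-fold, and a gap of 2.91 separated the nearest arrays of the 2 groups. YNL122C averaged 7.20 in G12-CBS and 9.65 in DS56, a difference of -2.45 ± 0.19, or 5.46-fold lower, with a gap of 1.75. Of all rows, 13.6% had all 3 G12-CBS arrays above all 3 DS56 arrays, and 24.6% had them all below. Array medians were lower in G12-CBS, and these shares were not recomputed with arrays centred on their medians. Of the 2390 differences, that of YKL138C was the second most positive and that of YNL122C the most negative. The median difference of all rows was -0.04.

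G12-CBS at 72 h against 24 h set the same strain at 2 times, before and after L-methionine was given, so time and feeding cannot be told apart. YKL138C averaged 10.05 at 72 h and 6.77 at 24 h, a log2 difference of 3.28 ± 0.13 (SE), or 9.71-fold, the most positive of the table. YNL122C averaged 7.20 at 72 h and 9.80 at 24 h, a difference of -2.60 ± 0.19, or 6.05-fold lower, the most negative of the table. The nearest arrays were 3.003 apart for YKL138C and 2.05 apart for YNL122C. Among all rows 14.9% had the 72 h arrays wholly above those at 24 h and 26.2% wholly below. At least 4-fold differences of 1 sign against both DS56 and G12-CBS at 24 h were found in 5 rows that were higher in G12-CBS at 72 h and in 3 that were lower, and the 2 rows are among these. At 2-fold the numbers were 22 and 27.

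The empty-vector control was not part of the choice by direction, and the rows took different sides towards it. YKL138C averaged 10.05 in G12-CBS at 72 h and 7.17 in the control, a log2 difference of 2.88 ± 0.13 (SE), or 7.38-fold, with all arrays above the control, which held in 8.70% of rows. YNL122C averaged 7.20 in G12-CBS at 72 h and 7.49 in the control, a difference of -0.29 ± 0.19, and the arrays overlapped. Single arrays moved this small value: it was -0.10 without G12-CBS 72 h replicate 2, -0.16 without control replicate 3, -0.46 without control replicate 1 and -0.49 without G12-CBS 72 h replicate 1. The 2 rows thus did not mirror each other: towards the control, G12-CBS at 72 h stood apart in YKL138C and overlapped in YNL122C.

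In DS56, YNL122C was the row that stood far from the control, and YKL138C lay just below the control. YNL122C averaged 9.65 in DS56 and 7.49 in the control, a log2 difference of 2.16 ± 0.19 (SE), or 4.46-fold, with all DS56 arrays above the control, which held in 21.0% of rows. YKL138C averaged 6.82 in DS56 and 7.17 in the control, a difference of -0.35 ± 0.13 with only 0.10 between the nearest arrays, and 12.9% of rows lay wholly below the control. G12-CBS at 24 h gave values like those of DS56. Its mean for YNL122C was 9.80 against 7.49 in the control, a difference of 2.31 ± 0.19, or 4.95-fold. For YKL138C the means were 6.77 in G12-CBS at 24 h and 7.17 in the control, a difference of -0.40 ± 0.13, with 0.19 between the nearest arrays. In this pair 24.2% of rows lay wholly above and 13.6% wholly below the control.

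The remaining pair, G12-CBS at 24 h against DS56, combines a difference in strain with one in time and feeding, and the arrays overlapped in both rows. YNL122C differed by 0.15 ± 0.19 (SE) and YKL138C by -0.05 ± 0.13 on the log2 scale, 24 h minus DS56. By limma's test (adjusted p under 0.05 over all rows), 13 rows of the table were higher and 10 lower in this pair. The median difference of all rows was 0.006. For G12-CBS at 72 h against the control the counts were 120 and 100, and they were larger in the other pairs. Few rows thus told these groups apart, so their likeness is not particular to YNL122C and YKL138C. The 6 arrays on which YNL122C was high are also those with the higher array medians and the smaller replicate spread given above. In YKL138C the same 6 arrays lay lowest, at 6.96 or below, with the control at 7.05 to 7.35. G12-CBS at 72 h lay far above both, at 9.87 or more. The part of this division in the level of either row was not tested.

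**Figure D2:**
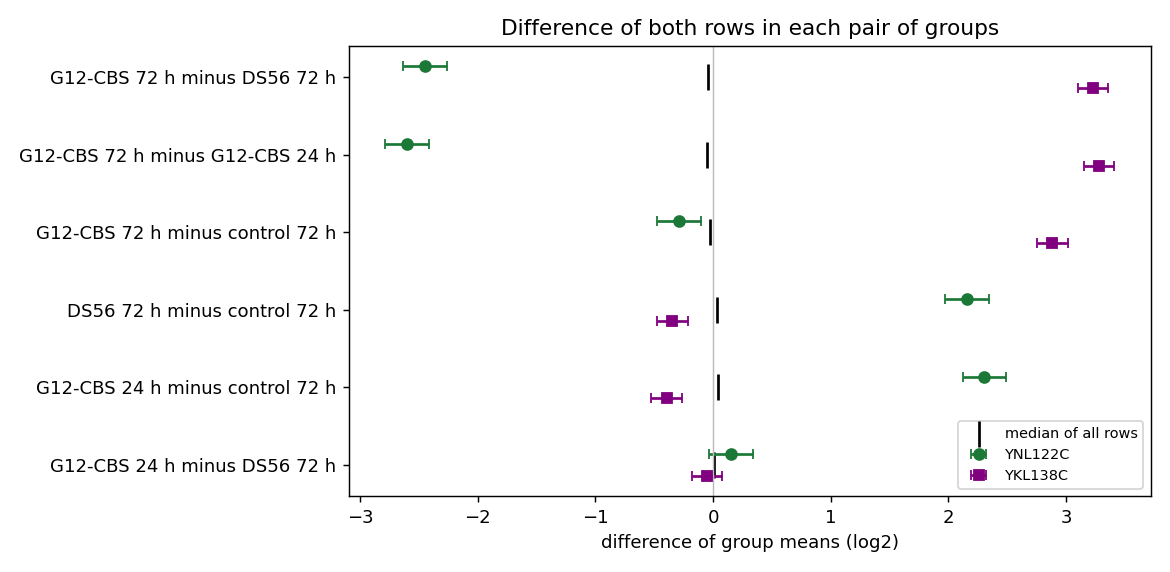
Difference of group means on the log2 scale for YNL122C (circles) and YKL138C (squares) in the 6 pairs of groups, with limma's SE as bars and the median difference of all 2390 rows as a black tick. The rows lie on opposite sides in the upper 2 pairs and differ in which engineered groups lie far from the control. Both are near 0 for G12-CBS at 24 h minus DS56.

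To see whether other proteins of the same ribosome behaved alike, rows were taken by S. cerevisiae systematic name. The list had 80 names of mitochondrial ribosomal proteins, of which 34 occurred in the table: the 2 rows above, 17 others of the large subunit and 15 of the small subunit. The files do not annotate these names, so the other rows are given by identifier and subunit only. The 32 other rows had means over the 12 arrays from 6.36 to 7.63, on both sides of the table's median of 6.64, and most differed little between groups. Their group means spanned between 0.06 and 1.28, with a median span of 0.346, against 0.351 over all 2390 rows. The group means of YKL138C spanned 3.28 and those of YNL122C 2.60, which ranked 3 and 9 in the table. These 2 rows had been chosen for large differences, so their place ahead of the list is a description only. The next row of the list ranked 54. A span of at least 1 was found in 1 of the 32 rows (3.12%) and in 4.73% of the whole table.

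**Figure D3:**
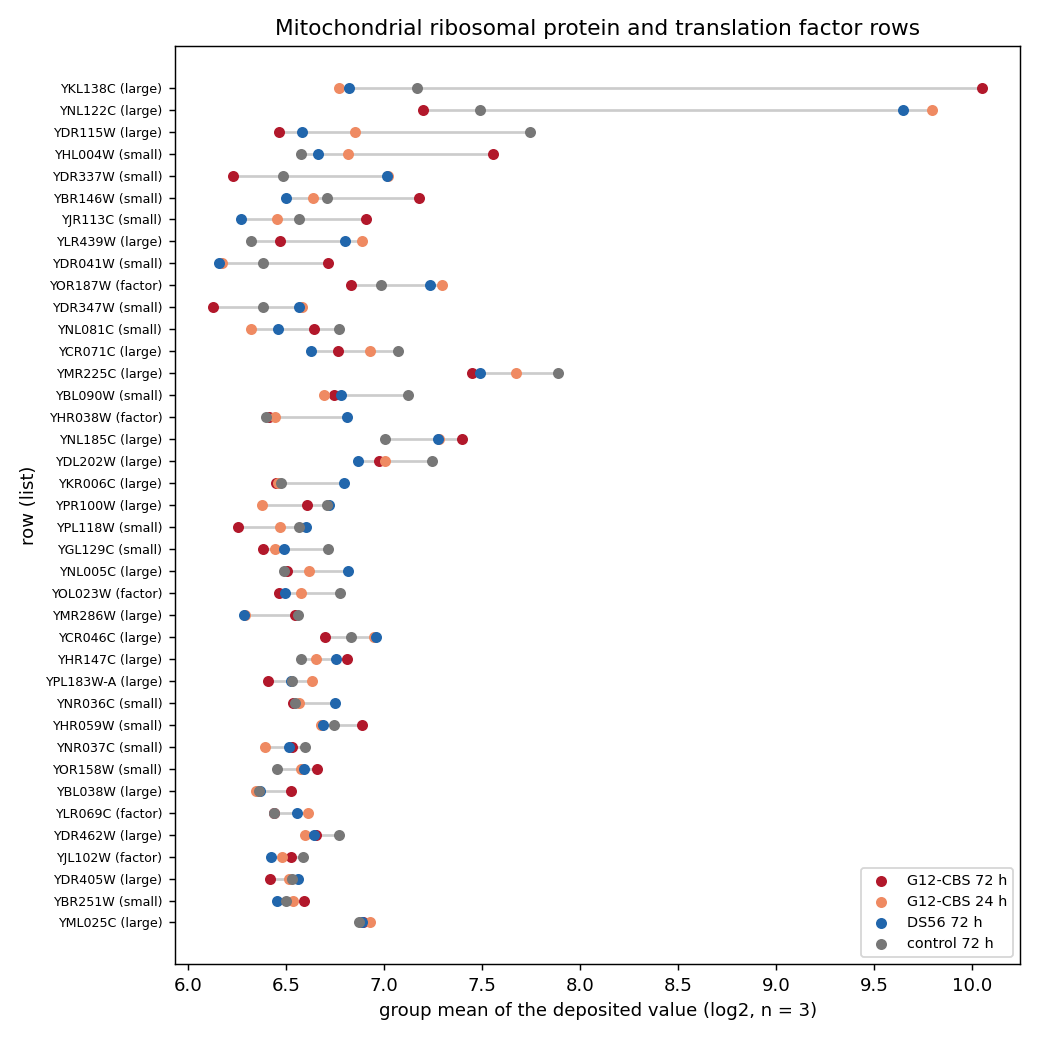
Group means on the log2 scale (n = 3 arrays each) of the 34 mitochondrial ribosomal protein rows, large or small subunit, and of 5 mitochondrial translation factor rows, ordered by the span of their 4 group means. YKL138C and YNL122C span 3.28 and 2.60, and the widest of the other rows, YDR115W, spans 1.28.

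For G12-CBS against DS56 at 72 h, limma's test (Benjamini-Hochberg over all rows, adjusted p under 0.05) passed 4 of the 32 rows as higher and 2 as lower, with 26 not passing. This is 18.8% of them, against 22.4% of all rows, and their median difference was 0.01 against -0.04 over all rows. All 6 belong to the small subunit (40% of its 15 rows), and none of the 17 other large-subunit rows passed. Of those 17, 3 had an unadjusted p under 0.05, as had 858 of all 2390 rows. The split between subunits was not tested. YHL004W rose most, with 7.48, 7.70 and 7.48 in G12-CBS and 6.75, 6.54 and 6.70 in DS56, a log2 difference of 0.89 ± 0.13 (SE, limma's adjusted p = 2.49e-05). YBR146W rose by 0.68 ± 0.13 (limma's adjusted p = 0.000753), and YJR113C and YDR041W by 0.64 and 0.55. YDR337W fell, with 6.23, 6.10 and 6.36 in G12-CBS and 7.10, 6.88 and 7.07 in DS56, a difference of -0.79 ± 0.18 (limma's adjusted p = 0.00337). YDR347W fell by 0.44. These are differences of less than 2-fold, against the 9.38-fold and 5.46-fold of the 2 rows above. Over the 12 arrays the 6 rows averaged from 6.36 to 6.90, not far from the table's median of 6.64. The count over all rows, 535, became 355 without DS56 replicate 2. The 535 were 199 higher and 336 lower, which became 253 and 278 with arrays centred on their medians. YJR113C no longer passed without G12-CBS 72 h replicate 1 (0.43) or DS56 replicate 2, nor YDR041W without DS56 replicate 3, nor YDR347W without DS56 replicate 1.

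Between G12-CBS at 72 h and 24 h, 3 of the 32 rows rose and 3 fell, again 18.8%, against 22.8% of all rows. Their median difference was 0.02, against -0.05 over all rows. After quantile normalization the split was 5 higher and 3 lower, and after centring arrays on their medians it was 4 and 3. Over all rows the split was 197 higher and 349 lower, and 253 and 291 after centring. YHL004W was again the largest rise, with 7.48, 7.70 and 7.48 at 72 h and 6.65, 6.92 and 6.89 at 24 h, a log2 difference of 0.74 ± 0.13 (SE, limma's adjusted p = 0.000219). YBR146W and YDR041W rose by 0.54 each. YDR337W fell by 0.79 (limma's adjusted p = 0.00327), YDR347W by 0.45 and the large-subunit row YLR439W by 0.42. YDR041W did not pass without 24 h replicate 2, YDR347W without 24 h replicate 1, and YLR439W without 24 h replicate 1 or 72 h replicate 3. Both comparisons share the G12-CBS 72 h arrays.

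For G12-CBS at 72 h against the control, 2 of the 32 rows rose and 1 fell, 9.38% against 9.21% of all rows, with a median difference of -0.05 against -0.02. YHL004W rose again, with the values above in G12-CBS and 6.66, 6.46 and 6.63 in the control, a log2 difference of 0.98 ± 0.13 (SE, limma's adjusted p = 2.00e-05). YBR146W rose by 0.47 (limma's adjusted p = 0.0272), which did not pass without control replicate 1 or 3 or without G12-CBS 72 h replicate 2, with array weights, or in a fit to these 6 arrays alone. The large-subunit row YDR115W fell, with 6.58, 6.39 and 6.42 in G12-CBS and 7.18, 7.36 and 8.70 in the control, a difference of -1.28 ± 0.25 (limma's adjusted p = 0.00222). Control replicate 3 stood far above the other control arrays in this row, and without it the difference was -0.80. In the fit to these 6 arrays it did not pass (limma's adjusted p = 0.149). The count of 3 became 5 without control replicate 2, 6 without G12-CBS 72 h replicate 3 and 1 in a fit to these 6 arrays alone. The count over all rows, 220, also became 51 in that fit, and 97 with array weights, where 2 of the 32 passed.

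For DS56 against the control, 2 of the 32 rows rose and 2 fell, 12.5% against 18.1% of all rows, with a median difference of -0.002 against 0.04. The split was 1 higher and 2 lower with arrays centred on their medians. Over all rows the split was 288 higher and 145 lower, and 212 and 184 with that centring. YDR115W fell, with 6.54, 6.62 and 6.59 in DS56 against the same control arrays, a log2 difference of -1.17 ± 0.25 (SE, limma's adjusted p = 0.00301), and of -0.69 without control replicate 3. YCR071C fell by 0.44, which did not pass without control replicate 1 or 3, DS56 replicate 2 or 3 or G12-CBS 24 h replicate 2, with array weights, or in a fit to the 6 arrays. YLR439W rose by 0.48 ± 0.12 (limma's adjusted p = 0.00934). Its rise stayed at 0.40 or above in every alternative but did not pass without DS56 replicate 1. YDR337W rose by 0.53 ± 0.18 (limma's adjusted p = 0.0454), but with control replicate 3 left out the difference was 0.24 and did not pass (limma's adjusted p = 0.259). It also did not pass without any 1 array of DS56 or of G12-CBS at 24 h, with median centring, in the fit to the 6 arrays, or with the replicate number as a block (limma's adjusted p = 0.0552). The count of 4 became 2 without any 1 DS56 array, without G12-CBS 24 h replicate 2, or in a fit to the 6 arrays alone. The count over all rows, 433, became 253, 239 and 246 without DS56 replicate 1, 2 and 3.

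Mitochondrial translation factors, the proteins that start, extend and end synthesis on these ribosomes, were represented by 5 of 6 listed names. No row of the 5 passed for G12-CBS at 72 h against DS56 (2 had an unadjusted p under 0.05), for G12-CBS at 72 h against the control (0) or for DS56 against the control (1) with limma. Over all rows, 22.4%, 9.21% and 18.1% passed in these comparisons, and 858, 536 and 740 of 2390 had an unadjusted p under 0.05. With shares of this size, 5 rows are too few to tell the list from the table. Between G12-CBS at 72 h and 24 h, where 22.8% of all rows passed, YOR187W fell by 0.46 ± 0.16 on the log2 scale (SE, limma's adjusted p = 0.0450). Its values were 6.76, 6.88 and 6.86 at 72 h and 7.30, 7.18 and 7.42 at 24 h. This call did not pass without any 1 array of DS56, of G12-CBS at 72 h or of G12-CBS at 24 h, or with arrays centred on their medians (limma's adjusted p up to 0.158).

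The rows whose pattern was most like each of the 2 were sought among the 113 rows whose group means spanned at least 1, by Pearson correlation over the 12 arrays. The arrays fall into groups, so the coefficient mostly measures likeness of group means and is given as a description. For YNL122C the 5 highest were YGL001C (0.99), YEL057C (0.97), YLR153C (0.97), YDR410C (0.97) and YOR383C (0.96). Each was higher in G12-CBS at 24 h and DS56 than in G12-CBS at 72 h and the control, with smaller spans of 1.09, 1.42, 1.75, 1.03 and 1.17 in the same order. YEL057C was the brightest of them, at 8.54 in G12-CBS at 72 h, 9.96 in G12-CBS at 24 h, 9.66 in DS56 and 8.79 in the control. None of the 5 is on the mitochondrial ribosomal list, but only 1 of the 32 other rows of that list spanned enough to be searched. That row, YDR115W, was highest in the control. Below that span, YDR337W and YLR439W of the list were higher in G12-CBS at 24 h (7.02 and 6.89) and DS56 (7.02 and 6.80). They were lower in G12-CBS at 72 h (6.23 and 6.47) and the control (6.49 and 6.32). The DS56 and control arrays of YDR337W overlapped.

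For YKL138C the 5 rows were YLR037C (0.99), YGR049W (0.99), YNL190W (0.99), YDR322C-A (0.97) and YDL215C (0.97). All had their highest group mean in G12-CBS at 72 h. YGR049W was close in size too, at 9.76 in G12-CBS at 72 h, 6.76 in G12-CBS at 24 h, 6.81 in DS56 and 6.84 in the control. YNL190W stood at 10.52, 7.27, 7.07 and 7.43 in the same groups. YLR037C was bright in every group, at 11.51 in G12-CBS at 72 h, 9.92 in G12-CBS at 24 h, 9.76 in DS56 and 10.00 in the control, so its span was only 1.75. None of these rows is on the mitochondrial ribosomal list either, with the same limit on the rows searched. Below the span searched, YHL004W of the list was also highest in G12-CBS at 72 h, at 7.56. It stood at 6.82 in G12-CBS at 24 h, 6.66 in DS56 and 6.58 in the control.

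**Figure D4:**
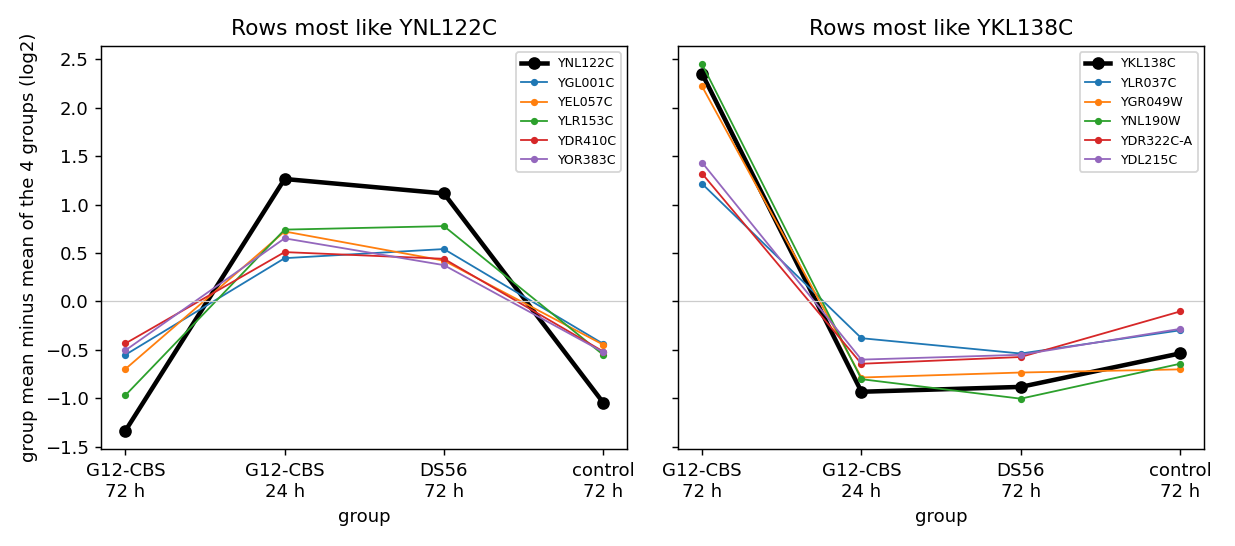
Group means minus the mean of the 4 groups (log2) for YNL122C and the 5 rows most like it (left) and for YKL138C and the 5 rows most like it (right); the lines only join the groups for the eye. The rows on the left are high in G12-CBS at 24 h and DS56, and those on the right in G12-CBS at 72 h, where YNL190W and YGR049W come close to YKL138C in size.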

How the data were processed

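The authors' deposited log2 values were used as they stand, 1 per row and array. Per the submitters' processing notes they were made with RMA. The sources used here give neither its version nor the background correction nor the array design. The design text speaks of 5777 genes with 8 probes for each, and the table used has 2390 rows. No scanner files or detection flags were used, so signal over background is unknown, and 3 arrays a group limit the precision.

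Groups were compared by lmFit and eBayes of limma 3.58.1 (R 4.3.3), fitted to all rows and 12 arrays with a mean for each of the 4 groups and no replicate block. P-values were two-sided and adjusted by Benjamini-Hochberg over all 2390 rows, with a threshold of 0.05. The 2 rows, the lists and the tests were chosen with earlier results of these data known. List rows were named as the 5 largest passing differences in each direction of a comparison, and like rows as the 5 highest correlations. The lists hold S. cerevisiae systematic names from general knowledge. The model was run on simulated data, where recovery was required only for changes larger than those of the list rows named above. Same-numbered arrays of different groups had deviations that correlated at -0.12 to 0.18, above 0.1 in 2 of 18 pairs, so the numbers were not taken to pair cultures. Alternatives were a replicate block, the 6 arrays compared, quantile normalization, median centring, removal of the dimmest 25% of rows, trended robust moderation, leaving out single arrays and array weights. The plots were made with matplotlib 3.10.9.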

Additional observations from a re-analysis of the deposited data

How the results depend on the processing

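The 12 differences of YNL122C and YKL138C between pairs of groups moved by less than 1 SD in all 228 alternative fits. Many of these fits leave a difference of group means unchanged by construction. They are the replicate block, the 6-array fit, removal of dim rows, trended robust moderation and leaving out an array outside the pair. With 1 array left out, the difference of G12-CBS at 72 h from DS56 lay between 3.17 and 3.32 for YKL138C and between -2.64 and -2.26 for YNL122C. The difference from 24 h lay between 3.22 and 3.37 for YKL138C and between -2.79 and -2.41 for YNL122C. The small differences of G12-CBS at 24 h from DS56 lay on either side of 0, from -0.004 to 0.26 for YNL122C and from -0.10 to 0.02 for YKL138C. Both rows were chosen from these arrays as large differences, so this says little about other rows. The replicate block ended the call of YDR337W for DS56 against the control (adjusted p = 0.0552) and no other call of a named list row. The count of other mitochondrial ribosomal protein rows passing with 1 array left out ran from 2 to 6 for G12-CBS at 72 h against the control and from 2 to 5 for DS56 against the control. A fit to the 6 arrays compared gave 1 and 2. Over the whole table that fit gave 51 rows and array weights gave 97 for G12-CBS at 72 h against the control, against 220 reported, and the cause was not tested. With single arrays left out, between 355 and 586 rows passed for G12-CBS at 72 h against DS56 (535 reported) and between 239 and 480 for DS56 against the control (433 reported). Of 376 alternative fits of named list rows, 42 no longer passed and none turned direction. The settings that leave a difference unchanged could not turn it. The 140 recomputed correlations stayed within intervals that take the arrays as independent, although the arrays fall into groups. They reuse nearly all of the same arrays, so this says little.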
